A study of Mus musculus with 10 samples.

Results

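The genes described here encode the subunits of the ligand-gated ion channels that open to glutamate, GABA or glycine. The members were taken by symbol alone, as the protein-coding genes named Gria, Grid, Grik, Grin, Gabra to Gabrr and Glra or Glrb. These families were chosen with earlier results of these data known. The rule took 42 of the 54532 genes in the count files, of which 4 encode AMPA receptor subunits, 2 delta receptor subunits, 5 kainate receptor subunits, 7 NMDA receptor subunits, 16 GABA-A receptor subunits, 3 GABA rho subunits and 5 glycine receptor subunits.

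RNA came from the cochlea of 12-month-old mtKeima mice, which carry a transgene for a pH-sensitive fluorescent protein sent to the mitochondria. Nicotinamide riboside (NR), a precursor of NAD+, was in the drinking water of the 5 NR-treated mice at 7 mg/ml (24 mM) from 2 months of age for 10 months, while the 5 non-treated mice, called Vehicle in the plots, had regular water. All 10 mice carried the transgene on a mixed genetic background, and the colony was typed as wild type for cadherin23 and for nicotinamide nucleotide transhydrogenase. The promoter of the transgene is not given in the sources used here, each mouse gave 1 library, and the labels call the mice female where the study's methods call them male.

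Glutamate drives fast excitation in the cochlea: inner hair cells release it onto the afferent dendrites of spiral ganglion neurons, which answer mainly through AMPA receptors, with NMDA and kainate subunits also present. GABA-A and glycine receptors are chloride channels best known from inhibitory synapses of the brain and spinal cord, and GABA is among the transmitters of the efferent fibres that reach the cochlea. All of these channels are built from several subunits, so the set of subunit genes that a tissue transcribes sets which channels it could build.

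The libraries held 17060379 to 24419230 counted reads, and the receptor genes took 0.0587% to 0.0746% of them. A gene with 3 reads, the floor used here, stood at 0.121 to 0.174 CPM in a library, CPM being the count scaled to a library size of 1000000 reads. Ddx3y, a gene of the Y chromosome, lay at 64.5 to 85 CPM in all 10 libraries. Xist, which is transcribed from the inactive X chromosome of females, was at no more than 0.405 CPM. All 10 libraries therefore had the pattern of male mice, as the study's methods state and unlike the labels. Markers of spiral ganglion neurons were abundant in every library (13 markers, summed level 4060 to 6200 CPM), and those of hair cells were present at 162 to 460 CPM in sum over 10 markers. In 4 libraries, those of NR-treated mice 1, 3 and 5 and of non-treated mouse 1, Prph, the peripherin gene of peripheral neurons, stood at 118 to 147 CPM. It was at 26.8 CPM in NR-treated mouse 4 and at 4.94 CPM or less in the other 5. The libraries above 50 CPM were set apart after the data were seen. That split is uneven between the groups, since it takes in NR-treated mice 1, 3 and 5 but only non-treated mouse 1. The main receptor results are therefore given below with and without those libraries, as are several partner and marker genes.

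Of the 42 receptor genes, 32 passed the filter on low counts and entered the test of NR-treated against non-treated mice. More receptor genes were higher in NR-treated mice than the background share: 8 passed an unadjusted p of 0.05 upward and 0 downward. The 8 are 25% of those tested, where 4.83% of all 18329 genes tested passed upward and 4.88% downward. The families were chosen with earlier results of these data known, and the study had reported synaptic terms as upregulated in the same mice. This excess is therefore not independent of those results. The 8 were Gria2, Grid1, Grik1, Grik3, Grin3a, Grin3b, Gabra3 and Gabrp. None passed an adjusted p of 0.05 by the quasi-likelihood test of edgeR with Benjamini-Hochberg adjustment, the smallest adjusted p being 0.423, and no gene of the whole table did. DESeq2 gave 9 receptor genes higher and 0 lower at an unadjusted p of 0.05, where 3.5% of its genes passed upward, with Gria1 (unadjusted p = 0.0475) as the addition and a smallest adjusted p of 0.113. With 1 library left out at a time, the number higher ran from 4, without NR-treated mouse 3 or non-treated mouse 2, to 13, without non-treated mouse 1, and was 5 without non-treated mouse 3. The fitted log2 fold change lay above 0 for 24 of the 32 and at or below 0 for 8, with a median of 0.28. Over all genes tested, 47.1% lay above 0 and the median was -0.01. In no tested receptor gene did the 5 NR-treated mice all lie above or all below the 5 non-treated mice, a pattern that 0.769% and 0.878% of all genes tested showed. Passing the filter in itself depended on the NR-treated group for 2 genes, Gabra3 and Grin2b, which reached the filter's level of 0.443 CPM in all 5 NR-treated libraries but in 1 and 3 of the non-treated ones. In RNA of a whole cochlea, fewer cells of a type and less RNA per cell cannot be told apart.

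**Figure D1:**
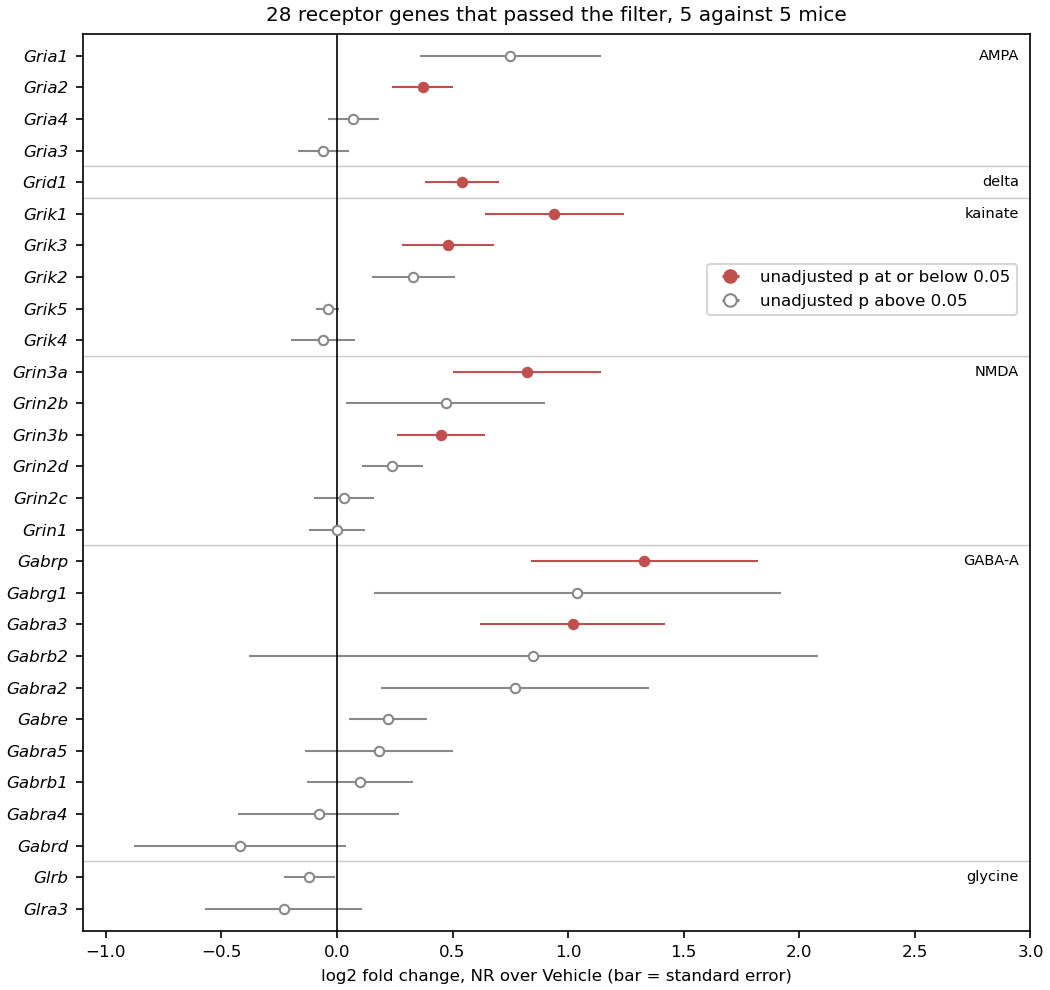
Fitted log2 fold change of NR-treated over non-treated mice (x axis, log2 scale) for 28 of the 32 receptor genes that passed the filter, in blocks by receptor class, with bars for the standard error. Filled points mark the 8 genes at an unadjusted p of 0.05 or below, all to the right of 0, and the open point of Gabrb2 carries the widest bar.

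Levels can be compared between genes once divided by the length of their exons, as CPM per kb. The most abundant receptor gene by far was Glrb at 41.8 ± 5.65 CPM per kb (SD, n = 10), followed by Grik5 at 13.2 ± 0.619, Grin1 at 9.65 ± 1.37 and Gria4 at 6.83 ± 0.834. Each of these is the leading gene of its class, and in each the groups overlapped. Grid1 led the delta receptors at 0.614 ± 0.152 CPM per kb. The rho genes were led by Gabrr2 at 0.209 ± 0.0562 CPM per kb, from 6 to 14 reads in a library. Without division by length, Gria4 ranks at place 3 of the 4 AMPA genes, since the exons of Gria2 span 15.5 kb and those of Gria4 6.3 kb, while Glrb, Grik5 and Grin1 stay first in their class.

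**Figure D2:**
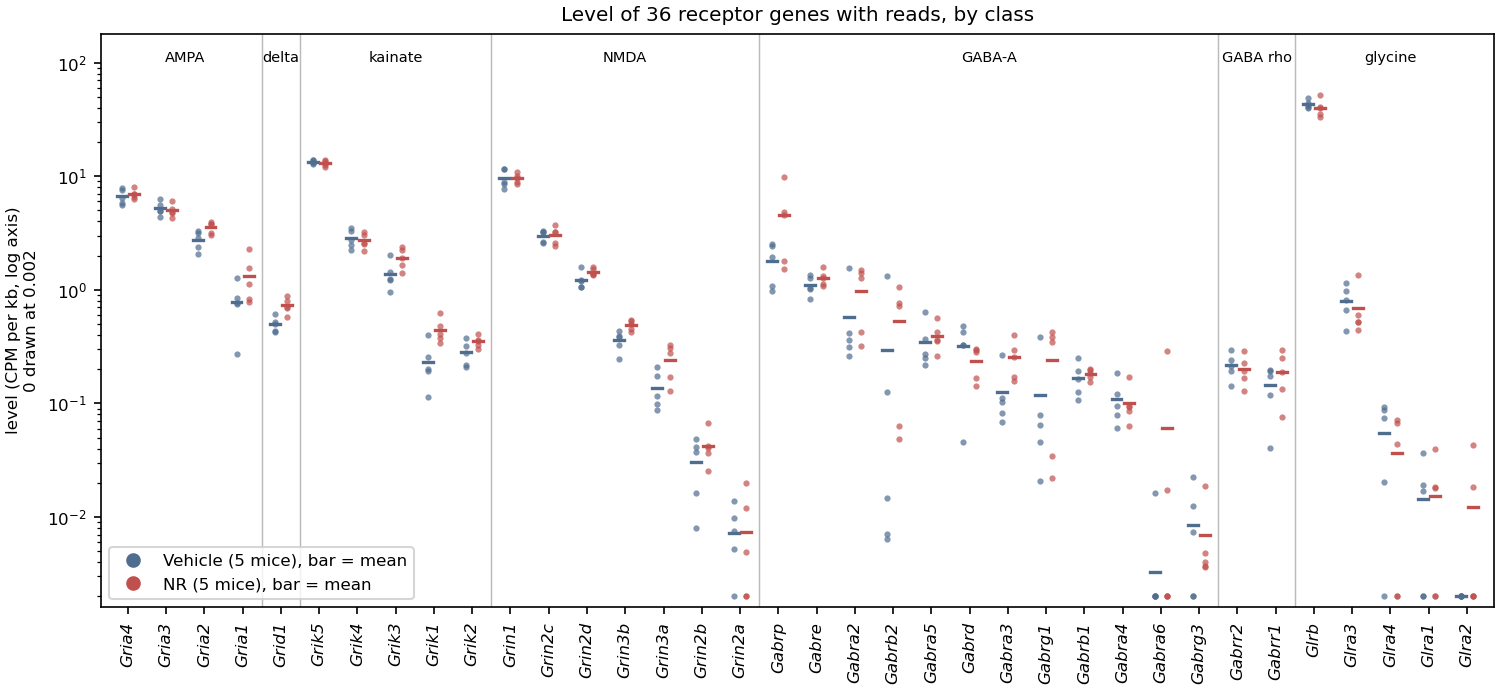
Level of 36 of the 40 receptor genes with at least 1 read (y axis, CPM per kb of exons, log scale, with 0 drawn at 0.002), ordered by level within each receptor class, for non-treated (Vehicle) and NR-treated (NR) mice. Each point is 1 mouse and each bar a group mean. Glrb stands above all others, and Gabrb2 and Gabrg1 spread over more than a factor of 10 within each group.

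AMPA receptors carry the fast part of the afferent response. Gria4 had 41.5, 50.4, 44, 44.5 and 40.1 CPM in NR-treated mice 1 to 5 and 40.2, 47.9, 36.9, 35.2 and 50.1 CPM in non-treated mice 1 to 5. The groups covered nearly the same range, and the log2 fold change was 0.07 ± 0.11 (SE, adjusted p = 0.843). Gria2 (ENSMUSG00000033981, chr3:80681450-80802835, minus strand, GRCm38) encodes the subunit that makes AMPA channels nearly impermeable to calcium. Its level was 49.2, 59.1, 59.2, 61.7 and 47 CPM in NR-treated mice and 36.8, 44.2, 31.9, 51.1 and 49.6 CPM in non-treated mice. Means were 55.2 ± 6.63 and 42.7 ± 8.27 CPM (SD). NR-treated mice 2, 3 and 4 lay above every non-treated mouse, while mice 1 and 5 fell within the non-treated range. This came to a log2 fold change of 0.37 ± 0.13, a 1.29-fold higher level (unadjusted p = 0.0184, adjusted p = 0.461). For Gria3 it was -0.06 ± 0.11. Gria1, the subunit tied to activity-driven insertion of AMPA receptors in the brain, was the least abundant of the class and ranged from 4.67 to 13.8 CPM against 1.64 to 7.63 CPM, with a log2 fold change of 0.75 ± 0.39 (adjusted p = 0.558). The share of Gria2 in the summed AMPA level per kb was 21.1% ± 1.78 in NR-treated and 17.8% ± 2.87 in non-treated mice, and that of Gria3 29.7% ± 1.14 and 33.9% ± 2.38. Both shares overlapped between the groups.

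Delta receptors bind cerebellins and take part in synapse organization more than in glutamate gating. Grid1 (ENSMUSG00000041078, chr14:34820108-35583379, plus strand) had the smallest p of all receptor genes. Its level in NR-treated mice was 4.14, 4.21, 4.72, 3.41 and 5.27 CPM, against 3.67, 3.1, 2.55, 2.6 and 2.97 CPM in non-treated mice. Only NR-treated mouse 4 fell below the highest non-treated mouse, and the other 4 lay above all of the non-treated group. The fitted difference was 0.54 ± 0.16 on the log2 scale (1.46-fold, unadjusted p = 0.00578, adjusted p = 0.423).

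By level per kb, kainate receptor genes fell into 2 parts, an abundant pair that differed little between the groups and a less abundant trio with fold changes above 0. Without division by length, Grik3 of the trio (means of 17.3 CPM in NR-treated and 12.4 CPM in non-treated mice) was near Grik4 of the pair (16.3 and 17 CPM). Grik5 and Grik4 encode high-affinity subunits that form channels only with a partner from Grik1, Grik2 or Grik3. Grik5 was the steadiest of the class leaders, at 70.6, 71.3, 67.5, 61.9 and 64.9 CPM in NR-treated mice and 71.8, 69, 67.8, 66.5 and 71.2 CPM in non-treated mice. Its log2 fold change was -0.04 ± 0.05 (adjusted p = 0.792), and that of Grik4 -0.06 ± 0.14. Grik1 (ENSMUSG00000022935, chr16:87895900-88290265, minus strand) had 2.55, 2.28, 3.25, 2.75 and 4.17 CPM in NR-treated and 2.68, 1.3, 0.769, 1.72 and 1.35 CPM in non-treated mice. The overlap came from 1 non-treated library, mouse 1, without which every NR-treated mouse was above every non-treated one. On the log2 scale Grik1 was higher by 0.94 ± 0.3 (1.92-fold, unadjusted p = 0.0098, adjusted p = 0.434). Grik3 (ENSMUSG00000001985, chr4:125490700-125714173, plus strand) had 17.2, 12.6, 21.5, 14.8 and 20.1 CPM against 18.3, 8.57, 11.2, 13 and 11 CPM. Non-treated mouse 1 stood above 3 of the NR-treated mice, and of the NR-treated mice only mouse 2 lay within the range of the other 4 non-treated mice. Its log2 fold change was 0.48 ± 0.2 (1.39-fold, unadjusted p = 0.0405, adjusted p = 0.498), and it did not pass 0.05 once NR-treated mouse 1, 3 or 5 or non-treated mouse 2, 3 or 5 was left out (unadjusted p from 0.0527 to 0.0875). Grik2 was at 0.33 ± 0.18 (adjusted p = 0.58). In level per kb the 3 partners together remained far below Grik5: Grik3 made up 10.4% ± 2.14 of the summed kainate level in NR-treated and 7.61% ± 2.09 in non-treated mice, and Grik1 2.42% ± 0.607 and 1.27% ± 0.551, where Grik5 made up 70.4% ± 2.76 and 73.9% ± 1.1.

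NMDA receptors need the subunit of Grin1 together with glutamate-binding Grin2 or glycine-binding Grin3 subunits. Grin1 had 87.1, 107, 82.7, 97.1 and 94.3 CPM in NR-treated and 85.9, 113, 82.9, 74.6 and 112 CPM in non-treated mice. The groups had the same mean of 93.6 CPM, and the log2 fold change was 0 ± 0.12 (adjusted p = 0.999). Exons of Grin1 share 13.5% of their bases with the antisense gene Grin1os, which reached 4.13 CPM at most. Among the Grin2 genes, Grin2c (3.02 ± 0.428 CPM per kb over all 10 mice) and Grin2d (1.34 ± 0.204) were the abundant ones, with log2 fold changes of 0.03 ± 0.13 and 0.24 ± 0.13. Grin2b was at 0.0362 ± 0.0166 CPM per kb, and Grin2a, a main forebrain subunit, had 29 reads in all libraries together, too few for the filter.

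Both Grin3 genes passed an unadjusted p of 0.05, and their subunits lower the calcium permeability of NMDA channels. Grin3a (ENSMUSG00000039579, chr4:49661611-49845744, minus strand) had 3.81, 1.57, 3.42, 2.1 and 3.99 CPM in NR-treated and 2.58, 1.08, 2.14, 1.41 and 1.21 CPM in non-treated mice. Its 4 highest values were those of the 4 libraries with Prph above 50 CPM, in the order NR-treated 5, 1 and 3 and non-treated 1. The log2 fold change was 0.82 ± 0.32 (1.76-fold, unadjusted p = 0.0285, adjusted p = 0.476). Without NR-treated mouse 1, 3 or 5 or non-treated mouse 2, 4 or 5 its unadjusted p was 0.0552 to 0.067. Grin3b (ENSMUSG00000035745, chr10:79970715-79977190, plus strand) had 1.49, 1.66, 1.77, 1.75 and 1.39 CPM against 1.44, 1.08, 0.809, 1.28 and 1.3 CPM. NR-treated mouse 5 was the only one of its group below a non-treated mouse. The log2 fold change was 0.45 ± 0.19 (1.37-fold, unadjusted p = 0.0358, adjusted p = 0.488), with an unadjusted p of 0.0536 to 0.073 when NR-treated mouse 2, 3 or 4 or non-treated mouse 2 or 3 was left out. Of the exon bases of Grin3b, 32.1% lie within exons of Tmem259 on the opposite strand, a gene at 191 ± 7.53 CPM in NR-treated and 195 ± 5.28 CPM in non-treated mice (log2 fold change -0.03 ± 0.04). The reads were counted without regard to strand, so in that stretch the reads of these genes cannot be told apart.

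**Figure D3:**
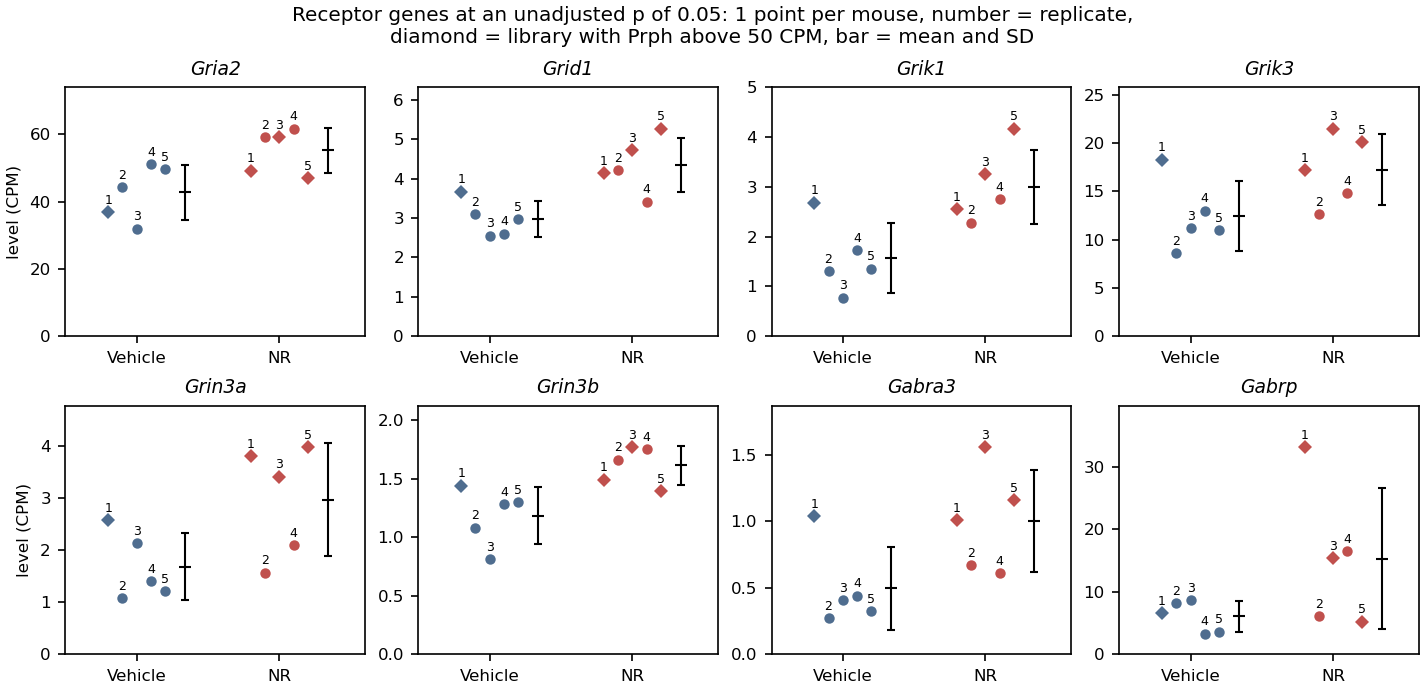
Level in CPM (y axis, linear, from 0) of the 8 receptor genes at an unadjusted p of 0.05 or below, with 1 numbered point per mouse and bars for the mean and SD of each group. Diamonds mark the 4 libraries with Prph above 50 CPM, and the lone Vehicle diamond, mouse 1, is the highest non-treated point in Grid1, Grik1, Grik3, Grin3a, Grin3b and Gabra3.

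GABA-A receptors are assembled from alpha and beta subunits with a gamma, delta or epsilon subunit, and the alpha subunit sets much of their pharmacology. Gabra3 (ENSMUSG00000031343, chrX:72432681-72656848, minus strand) had 1.01, 0.671, 1.56, 0.611 and 1.16 CPM in NR-treated and 1.04, 0.269, 0.405, 0.441 and 0.325 CPM in non-treated mice. Again non-treated mouse 1 was apart from its group, and every NR-treated mouse exceeded the other 4 non-treated mice. This gave a log2 fold change of 1.02 ± 0.4 (2.02-fold, unadjusted p = 0.0272, adjusted p = 0.476), on 160 reads over all libraries, and the unadjusted p was 0.0501 to 0.0754 without NR-treated mouse 3 or without any 1 of non-treated mice 2 to 5. Gabrp (ENSMUSG00000020159, chr11:33550781-33578959, minus strand) encodes the pi subunit, which is found mainly outside the nervous system, in epithelia. It had 33.2, 6.04, 15.4, 16.5 and 5.21 CPM in NR-treated and 6.55, 8.17, 8.62, 3.31 and 3.62 CPM in non-treated mice. NR-treated mice 1, 3 and 4 were above all non-treated mice and mice 2 and 5 within their range. Its log2 fold change of 1.33 ± 0.49 was the largest of the tested receptor genes (2.52-fold, unadjusted p = 0.0204, adjusted p = 0.464), and without NR-treated mouse 1 it was 0.84 (unadjusted p = 0.0736). Gabre, the epsilon subunit (6.06 ± 0.978 against 5.21 ± 1.02 CPM), had a log2 fold change of 0.22 ± 0.17, and Gabrd, the delta subunit of extrasynaptic receptors, of -0.42 ± 0.46.

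Several GABA-A subunit genes varied widely within the groups, and followed the 4 libraries with Prph above 50 CPM. Gabrb2 had 6.7, 0.403, 4.85, 0.306 and 4.57 CPM in NR-treated and 8.49, 0.0449, 0.0405, 0.794 and 0.0929 CPM in non-treated mice. Gabrg1 had 3.37, 0.268, 3.03, 0.175 and 2.72 CPM against 3.03, 0.359, 0.162, 0.617 and 0.511 CPM. NR-treated mice 1, 3 and 5 and non-treated mouse 1 were high for both. Gabra2 had 9.69, 2.46, 11.3, 3.28 and 10.8 CPM against 11.8, 2.38, 1.98, 3.17 and 2.74 CPM. In all 3 genes the lowest of the 4 libraries was above the highest of the other 6. They had log2 fold changes of 0.77 to 1.04 between the groups, with unadjusted p from 0.212 to 0.507, and 3 of the 4 libraries belong to NR-treated mice.

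In all, the 4 libraries were the 4 highest in 8 of the 32 receptor genes tested (25%), against 590 of the 18329 genes tested (3.22%). The 8 comprised 6 of the 13 GABA-A genes tested, 1 of 5 kainate and 1 of 6 NMDA genes, with none of the AMPA, delta or glycine genes. Gabra2, Gabra3, Gabrb2, Gabrg1, Grik3 and Grin3a were among the 8. Prph, by which the libraries were set apart, was at 118, 3.44, 132, 26.8 and 147 CPM in NR-treated and 120, 2.47, 4.94, 2.03 and 3.9 CPM in non-treated mice. Scn7a, a sodium channel of glia and peripheral nerve, was at 80.1 to 101 CPM in these libraries and at 5.66 to 16.4 CPM in the rest. Of the 9 listed markers of autonomic and cranial ganglia the summed level was 86.8 to 118 CPM in NR-treated and 69.1 to 115 CPM in non-treated mice. Within that list Phox2a, Dbh and Hand2, which mark autonomic neurons, were at 0.279 CPM or less in every library. Th, also found in some spiral ganglion neurons, was at 8.91 to 12 CPM in the 4 libraries and at 1.5 to 6.72 CPM in the rest. Whether the tissue taken differed between libraries was not tested.

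**Figure D4:**
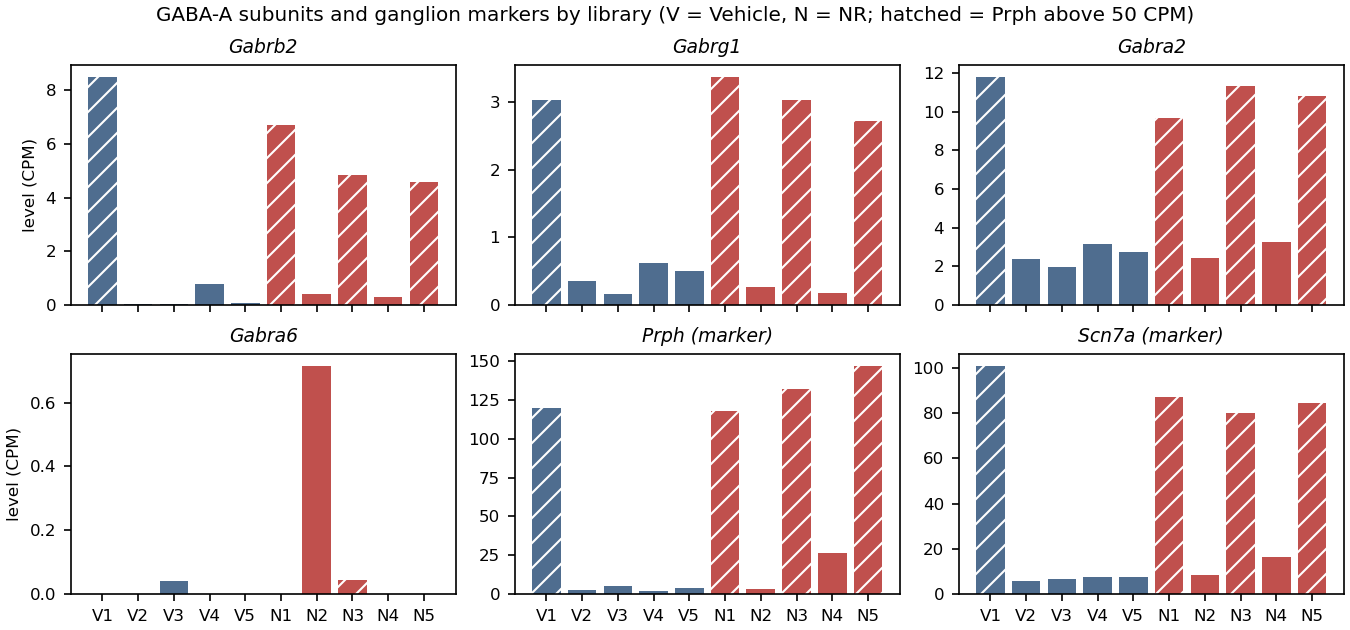
Level in CPM (y axes, linear, from 0) in each library, for 4 GABA-A subunit genes and the markers Prph and Scn7a, with Vehicle mice 1 to 5 as V1 to V5 and NR mice 1 to 5 as N1 to N5. Hatched bars are the 4 libraries with Prph above 50 CPM, which are the highest in all panels except that of Gabra6, where N2 stands alone at 0.716 CPM.

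Several genes of the pattern are neighbours on the chromosomes, though not every neighbour shared it. On chromosome 11, Gabra6 and Gabrb2 lie 98.7 kb apart. Gabrb2 had the 4 libraries highest, while Gabra6, under the filter with 18 reads in all, had too few reads to tell. On chromosome 5, Gabrg1 and Gabra2 lie 115 kb apart and both had it, while Gabra4 and Gabrb1, which come next and overlap each other by 196 bases, did not. Gabra4 had 0.371 to 1.12 CPM and Gabrb1 1.49 to 3.48 CPM over all libraries. Promoters of these neighbours are printed because they show which letters precede genes that did and did not share the pattern. The windows run from 250 bases before to 50 bases after a RefSeq start on GRCm38.p6 and are written 5′ to 3′ along the gene. RefSeq promoters were at hand for 29 of the 42 genes. Capitals mark matches, on either strand, to the TATA box TATAAA, the GC box GGGCGG, the E box CAGATG, the homeodomain core TAATTA or the cyclic AMP element TGACGTCA.
Gabrg1 (chr5:70842568-70842867, minus strand, high in the 4 libraries): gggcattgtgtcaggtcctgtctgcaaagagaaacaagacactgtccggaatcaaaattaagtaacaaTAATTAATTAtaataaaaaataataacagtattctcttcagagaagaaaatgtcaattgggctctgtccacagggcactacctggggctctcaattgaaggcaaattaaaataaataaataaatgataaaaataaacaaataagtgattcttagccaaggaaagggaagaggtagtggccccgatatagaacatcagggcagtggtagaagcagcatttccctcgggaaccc
Gabra2 (chr5:71095800-71096099, minus strand, high in the 4 libraries): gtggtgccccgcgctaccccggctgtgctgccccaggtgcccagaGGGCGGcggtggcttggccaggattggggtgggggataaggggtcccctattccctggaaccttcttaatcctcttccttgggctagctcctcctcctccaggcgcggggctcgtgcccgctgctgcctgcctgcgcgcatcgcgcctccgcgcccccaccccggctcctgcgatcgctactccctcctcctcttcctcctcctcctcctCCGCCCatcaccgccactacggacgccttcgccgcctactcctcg
Gabra4 (chr5:71658259-71658558, minus strand, without the pattern): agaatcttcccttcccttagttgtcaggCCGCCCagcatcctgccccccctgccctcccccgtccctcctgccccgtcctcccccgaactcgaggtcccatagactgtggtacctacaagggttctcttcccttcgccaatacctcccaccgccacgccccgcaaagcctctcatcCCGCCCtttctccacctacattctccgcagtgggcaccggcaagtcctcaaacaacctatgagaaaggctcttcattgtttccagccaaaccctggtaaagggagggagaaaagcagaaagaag
Gabrb1 (chr5:71657671-71657970, plus strand, without the pattern): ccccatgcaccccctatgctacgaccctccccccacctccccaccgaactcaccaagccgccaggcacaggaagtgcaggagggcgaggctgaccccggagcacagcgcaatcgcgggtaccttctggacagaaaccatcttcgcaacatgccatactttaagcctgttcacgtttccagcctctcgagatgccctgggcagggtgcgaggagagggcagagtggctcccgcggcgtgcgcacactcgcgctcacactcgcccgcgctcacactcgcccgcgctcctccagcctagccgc
Gabrb2 (chr11:42420190-42420489, plus strand, high in the 4 libraries): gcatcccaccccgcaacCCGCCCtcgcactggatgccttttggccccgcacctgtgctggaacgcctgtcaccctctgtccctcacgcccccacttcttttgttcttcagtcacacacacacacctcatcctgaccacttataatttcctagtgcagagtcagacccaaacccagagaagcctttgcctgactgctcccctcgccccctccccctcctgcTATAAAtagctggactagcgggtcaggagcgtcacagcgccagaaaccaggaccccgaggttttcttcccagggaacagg
The windows of the genes with the pattern had no motif in common. That of Gabrg1 was poor in G and C (38.3%, with 3 CpG) and held 2 overlapping TAATTA matches, a motif in 5.29% of the 32851 promoters of the table. That of Gabra2 had 70% G and C, 25 CpG and 2 GC boxes, a motif in 35.7% of promoters. The Gabrb2 window had 1 TATAAA (in 13.6% of promoters) and 1 GC box. Of the genes without the pattern, Gabra4 had 2 GC boxes and Gabrb1 none of the motifs, with 25 CpG. CAGATG and TGACGTCA, in 17.2% and 1.79% of promoters, were in none of these windows. Such a match is a description of letters, not of a bound site.

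With the 4 libraries left out, which was decided after the data were seen and leaves 2 NR-treated against 4 non-treated mice, 3 receptor genes were higher at an unadjusted p of 0.05 and 0 lower, of 32 tested. The background in that fit was 1.89% upward and 1.86% downward of 18958 genes. Among the 3 were Gria2 (log2 fold change 0.45 ± 0.18, unadjusted p = 0.0371) and Grik1 (0.97 ± 0.33, unadjusted p = 0.0218). All of the 8 genes named at the start kept a log2 fold change above 0. Grid1 was at 0.44 ± 0.21 (unadjusted p = 0.0706), Grin3b at 0.61 ± 0.29 (unadjusted p = 0.069) and Gabra3 at 0.82 ± 0.36 (unadjusted p = 0.0579). Further from the threshold were Grik3 at 0.33 ± 0.19 (unadjusted p = 0.118), Gabrp at 0.92 ± 0.53 (unadjusted p = 0.122) and Grin3a at 0.32 ± 0.35 (unadjusted p = 0.386). Gabrb2 no longer passed the filter, and Gabrg1 turned to -0.87 ± 0.63 (unadjusted p = 0.208). Prph, at 26.8 CPM in NR-treated mouse 4, was still higher in the NR-treated mice of this set (2.18, unadjusted p = 0.0172). So was Scn7a (0.85, unadjusted p = 0.0177). Leaving out the 4 libraries therefore did not even out these markers between the groups. The median log2 fold change of the receptor genes tested was again 0.28, beside -0.01 over all genes, but not over the same genes. The GABA-A median fell from 0.77 (13 genes tested) to 0.16 (11 genes tested). Those of the AMPA and glycine genes rose, from 0.22 to 0.31 and from -0.17 to 0.03.

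**Figure D5:**
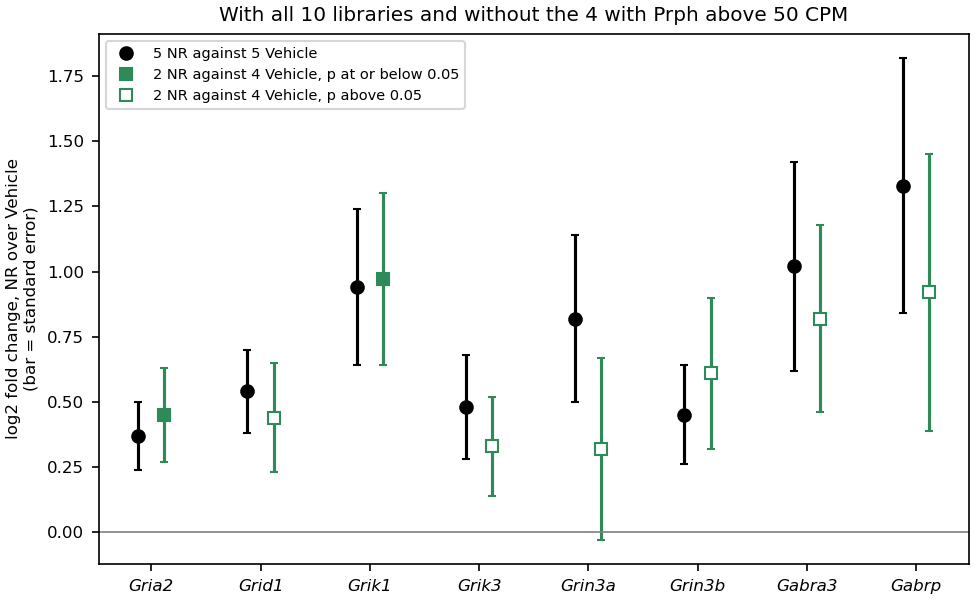
Log2 fold change of NR-treated over non-treated mice (y axis, bars = standard error) of the 8 receptor genes, from all 10 libraries (black) and without the 4 libraries with Prph above 50 CPM (green). All 16 estimates lie above 0, and Gria2 and Grik1 are the filled squares, at an unadjusted p of 0.05 or below in the smaller set.

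Gabra6, the alpha subunit of cerebellar granule cells, was nearly confined to 1 library. It had 18 reads in all, of which 16 were from NR-treated mouse 2 (0.716 CPM), 1 from NR-treated mouse 3 and 1 from non-treated mouse 3. In a fit of all 33224 genes with a read its p was 0.0354 (adjusted p = 0.633), where 4.26% of genes passed upward. In the same mouse Cbln3, also of cerebellar granule cells, was at 3.89 CPM against 0.579 to 1.54 CPM elsewhere, and the Purkinje gene Pcp2 at 1.97 CPM against 0.389 CPM or less. Gad2 and Slc32a1, which make GABA and load it into vesicles, were at 2.82 and 1.61 CPM there and at 0.202 and 0.397 CPM or less in the other libraries. Whether that library held RNA of other tissue was not tested.

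Glycine receptors pair an alpha subunit with the beta subunit of Glrb, which anchors them to gephyrin. Glrb had 157, 240, 184, 188 and 163 CPM in NR-treated and 185, 191, 199, 230 and 207 CPM in non-treated mice. NR-treated mice 1 and 5 were the lowest and mouse 2 the highest of all, and the groups overlapped (log2 fold change -0.12 ± 0.11, adjusted p = 0.738). Of the alpha subunits only Glra3 passed the filter, at 0.746 ± 0.315 CPM per kb over all 10 mice, so beta made up 97.2% to 98.8% of the summed glycine receptor level in every library. The log2 fold change of Glra3 was -0.23 ± 0.34. Glra1, the main alpha subunit of the adult spinal cord, had 8 reads over all libraries, Glra2 had 4 and Glra4 had 20.

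Among the remaining genes under the filter, Gabrr1 and Gabrr2, known from retinal bipolar cells, had 82 and 96 reads, with log2 fold changes of 0.39 ± 0.46 and -0.1 ± 0.34 in the fit of all genes with a read. Gabrg3 had 20 reads. No read fell on Gabrq or Gabrr3, which allows a level of up to 0.0138 CPM over the 10 libraries. Counting error is all that this limit covers. For these genes a difference between the groups was not detectable at this depth.

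The partners of these receptors gave a mixed account, in which each value with ± is a log2 fold change with its SE. Of 34 auxiliary subunits and scaffolds of glutamate receptors, 32 were tested, with a median log2 fold change of 0. At an unadjusted p of 0.05, 5 passed upward and 1 downward. Beside this list and those that follow, 4.83% of all genes tested passed upward and 4.88% downward. Higher were Nptxr, a receptor for pentraxins that gather AMPA receptors (0.24 ± 0.08, unadjusted p = 0.0137), Cacng5, an AMPA receptor auxiliary subunit (0.63 ± 0.21, unadjusted p = 0.014), and Shank3, a scaffold of the postsynaptic density (0.28 ± 0.11, unadjusted p = 0.0249). The other two, Gsg1l and Nptx2, were named after their values were seen (0.75 ± 0.33 and 0.69 ± 0.31). Dlg2, a membrane scaffold that binds NMDA receptors, was lower at -0.3 ± 0.09 (unadjusted p = 0.005). Cacng7, the most abundant of the list, had a log2 fold change of 0.08. Without the 4 libraries, 1 gene of the list was higher and 0 lower, where 1.89% and 1.86% of all genes tested passed.

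Of the 12 genes for inhibitory synapse scaffolds, all tested, 2 were higher, Slitrk3 (0.37 ± 0.14, unadjusted p = 0.0256) and Gabarapl1 (0.12 ± 0.05, unadjusted p = 0.034), the latter also the most abundant, and 0 were lower. The gephyrin gene Gphn, which holds glycine and GABA-A receptors in place, was at -0.02 ± 0.06. Of 10 metabotropic glutamate and GABA receptors, 5 were tested and 0 passed in either direction by edgeR, the most abundant being Gabbr1 (0.11 ± 0.05, unadjusted p = 0.0646). For glutamate supply and uptake, 12 genes were tested with 1 higher and 1 lower. Slc17a6, the vesicular transporter VGLUT2, was at 94 to 128 CPM in NR-treated and 39.8 to 93.6 CPM in non-treated mice (0.52 ± 0.19, unadjusted p = 0.0189), with no overlap between the groups, and Glul, glutamine synthetase, was lower (-0.29 ± 0.09, unadjusted p = 0.0104). Of the 10 genes for GABA and glycine supply, 7 were tested, with 0 higher and 1 lower, the glycine transporter Slc6a9 (-0.35 ± 0.12, unadjusted p = 0.0146). The most abundant, Slc6a13, had a log2 fold change of 0.24. Without the 4 libraries, Gabarapl1 (0.18, unadjusted p = 0.0422) and Slc6a9 (-0.32, unadjusted p = 0.0291) still passed. Slitrk3 (0.2, unadjusted p = 0.206), Slc17a6 (0.54, unadjusted p = 0.11) and Glul (-0.22, unadjusted p = 0.111) did not.

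Chloride cotransporters set the chloride gradient on which GABA-A and glycine channels act. All 4 were tested, 1 higher and 1 lower. Slc12a5, the neuronal exporter KCC2, had 12.9 to 20.6 CPM in NR-treated and 8.54 to 15.9 CPM in non-treated mice (0.42 ± 0.18, unadjusted p = 0.0435). Slc12a2, the importer NKCC1, which strial marginal cells also use, had 339 to 552 against 520 to 1080 CPM (-0.72 ± 0.19, unadjusted p = 0.00333). Without the 4 libraries, Slc12a2 was still lower at -0.56 (unadjusted p = 0.0431) and Slc12a5 was at 0.49 (unadjusted p = 0.0941).

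Markers of several cell types differed between the groups, and those named here, with log2 fold changes, were picked after their values were seen. Over all genes tested, 4.83% passed an unadjusted p of 0.05 upward and 4.88% downward. Of 13 markers of spiral ganglion neurons, 3 were higher and 0 lower at an unadjusted p of 0.05. They were Tubb3 (0.49 ± 0.13), Pou4f1 (0.59 ± 0.22) and Rbfox3 (0.28 ± 0.12). The most abundant, Calb2, was at -0.11, and the median of the list was 0.04. Pou4f1 was at 40.7 to 55.2 CPM in the 4 libraries with Prph above 50 CPM and at 16 to 36 CPM in the rest. Without the 4 libraries none of these 3 passed, and the 1 gene of the list that did was Prph itself, at 2.18 (unadjusted p = 0.0172). Tubb3 was then at 0.32 (unadjusted p = 0.0627), Pou4f1 at 0.42 (unadjusted p = 0.141) and Rbfox3 at 0.28 (unadjusted p = 0.185). The summed level of the 13 markers was 5020 to 5840 CPM in NR-treated and 4060 to 6200 CPM in non-treated mice. Of 9 markers of autonomic and cranial ganglia, 5 were tested, with 2 higher and 0 lower. The ganglionic nicotinic subunits Chrnb4 and Chrna3 were the 2, at 1.18 ± 0.36 and 1.07 ± 0.37. Their levels were low, at 0.0993 to 1.04 and 0.243 to 1.95 CPM over all libraries. Isl1, the most abundant of the list, was at -0.09 ± 0.1. Without the 4 libraries, Chrnb4 was at 1.19 (unadjusted p = 0.00751) and Chrna3 at 0.83 (unadjusted p = 0.209). Hair cell markers gave 0 of 10 in either direction, all 10 with a log2 fold change below 0. Of 9 supporting cell markers 6 were lower, of 8 strial markers 5 were lower, of 9 skeletal muscle markers 7 were higher, and of 6 adipocyte markers tested 5 were higher. Markers of central neurons (0 of 4 tested), of glia of the central nervous system (0 of 9), of Schwann cells (0 higher and Sox10 lower, of 8) and of bone (Col1a1 higher, of 8) completed the lists. Muscle markers summed to 21.2 to 927 CPM in NR-treated and 19.4 to 89.2 CPM in non-treated mice. Without the 4 libraries, 1 supporting cell marker and 3 strial markers were lower and 0 higher, and 6 muscle and 5 adipocyte markers were higher and 0 lower. Of central neuron markers 2 were then higher, and of central glia markers 2 were lower. The part of these markers in the receptor results was not tested.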

How the data were processed

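The values that the authors deposited are raw read counts per gene, 1 file per mouse, with no normalization. Per the submitters' notes and the supplementary methods, poly(A) libraries were sequenced, base calls came from CASAVA, reads were filtered with fastp, aligned to mm10 with STAR 2.6.1d (2 mismatches) and counted with featureCounts 1.5.0 in its default mode, which ignores strand. The annotation release is not given in the sources used here. Coordinates and lengths of all 42 receptor genes are those of the count files and are the same in GENCODE vM21 (GRCm38).

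Groups were taken from the labels, 5 NR-treated and 5 non-treated mice. The labels tie each library to 1 replicate, and p-values measure the spread between these libraries. No pair of libraries agreed within sampling noise. Counts were normalized with TMM, and the 18329 genes kept by filterByExpr (default settings), of 33224 with a read, were tested with the quasi-likelihood test of edgeR 4.0.16 in R 4.3.3, with no covariate, where the study used DESeq2. Benjamini-Hochberg adjustment covered all genes of a fit, and unadjusted p-values are named as such. Genes under the filter were tested in a fit of all genes with a read. CPM used the TMM-scaled library size. The scripts were tested on simulated data. The common biological coefficient of variation was 0.207, and 17060379 to 24419230 counted reads per library set the precision of genes with few reads. Motifs and figures were made with python 3.11.15.

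Alternatives were DESeq2 1.42.0, edgeR with its size factors, no filter, a filter of 20 reads in 5 libraries, a block for the replicate number, robust dispersion, each library left out, and levels not divided by length. Leaving out the 4 libraries with Prph above 50 CPM was added after the data were seen. The receptor genes and all lists were chosen with earlier results of these data known. Values in every library are given by rule for receptor genes at an unadjusted p of 0.05 and for the most abundant gene of each class. Of each partner list, up to 4 genes with the smallest p at or below 0.05 and the most abundant gene per kb are named. The library values of Gabra2, Gabra6, Gabrb2, Gabrg1, Prph, Gphn and the cerebellar genes were added after they were seen. Some receptor and marker genes are not reported here, though counts over all receptor genes include them.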

Additional observations from a re-analysis of the deposited data

Results flagged for a closer look

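In 56 checks of 28 receptor genes within a group of 5 mice, 3 had 1 mouse far from the other 4, its gap to the nearest being more than 0.71 of the range of log2 CPM. Chance flags about 1 in 20 such groups. In non-treated mouse 1, Gabra2 (gap 0.74 of the range) stood at 11.8 CPM against 1.98 to 3.17 CPM in the other non-treated mice. That library is 1 of the 4 with Prph above 50 CPM, and the NR-treated mice 1, 3 and 5 were high for the same gene. Gabrd was low in non-treated mouse 4, at 0.132 CPM against 0.931 to 1.39 CPM (gap 0.8), on few reads. Glra3 was high in NR-treated mouse 2, at 12.4 CPM against 4.1 to 5.56 CPM (gap 0.73).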

How the results depend on the processing

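No receptor gene passed an adjusted p of 0.05 under any alternative run, and the median log2 fold change of those tested lay between 0.23 and 0.37. The number higher at an unadjusted p of 0.05 was 8 with DESeq2 size factors, with robust dispersion and without a filter, 7 with the stricter filter, 9 with DESeq2 and 10 with the replicate block. It was 3 without the 4 libraries with Prph above 50 CPM, and 4 to 13 when each library was left out, with 4 without NR-treated mouse 3 or non-treated mouse 2, 5 without non-treated mouse 3 and 13 without non-treated mouse 1. The number lower was 0 to 2 over these, 2 without NR-treated mouse 2 and 1 without non-treated mouse 4. The cause was not tested. Gria2, Grid1 and Grik1 passed an unadjusted p of 0.05 in all 10 fits that left out 1 library, Gabrp in 9, Grin3b and Gabra3 in 5 and Grik3 and Grin3a in 4, all with log2 fold changes above 0. Grin3b did not pass without a filter (unadjusted p = 0.0547) or with the replicate block (unadjusted p = 0.0809), and Gabra3 did not enter the stricter filter. Glrb passed, and was lower, only without NR-treated mouse 2 (-0.22, unadjusted p = 0.0197). Same-numbered mice did not deviate together (correlations of -0.22 to 0.17 over genes), and 1 of 5 NR-treated mice correlated best with its own number, so the numbers were not taken to pair the mice, and the block changed the call of no other of the 8 genes. Depth limits the genes with few reads, such as Gabra3 with 160.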

Other observations

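Among the partner genes, Grm4, a metabotropic glutamate receptor of presynaptic terminals, and Cbln2, a cerebellin that binds neurexins and delta receptors, were also highest in the 4 libraries with Prph above 50 CPM. Grm4 was at 17.6 to 18.8 CPM there and at 2.96 to 4.56 CPM in the other 6, and without the 4 libraries its log2 fold change was 0.48 (unadjusted p = 0.0406). Cbln2 was at 7.61 to 9.09 CPM there and at 0.218 CPM or less in the other 6. Ret, the receptor for GDNF family ligands, was at 25.1 to 30.5 CPM in those libraries and also at 25.9 CPM in NR-treated mouse 4, with 6.43 to 10.4 CPM in the remaining libraries. Without the 4 libraries the log2 fold change of Ret was 1.03 (unadjusted p = 0.0318). Slc17a8, the vesicular glutamate transporter VGLUT3 of inner hair cells, was at 12.5 CPM in NR-treated mouse 2 and at 12.7 and 13.5 CPM in non-treated mice 3 and 4, against 3.62 to 5.09 CPM in the other 7. Otof, which these cells need to release glutamate, was highest in the same 3 mice, at 116, 197 and 203 CPM against 52.4 to 77.7 CPM.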
